A study of Mus musculus with 10 samples.

Results

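Translocation junctions were examined in which the bait and the prey share at least 5 bases at the join. In high-throughput genome-wide translocation sequencing, a fixed DNA break (the bait) is amplified together with whatever sequence it has joined (the prey), so that each read crosses 1 junction. When the last aligned base of the bait lies beyond the first aligned base of the prey, the shared bases can be assigned to either side, and their number is the overlap, or microhomology. Prey were junctions more than 1 Mb from the bait break at chromosome 6, position 41554973 (mm10), and all junctions on other chromosomes. Long-overlap prey were those with an overlap of 5 bases or more. They numbered 5398 of 26668 prey junctions (20.2%), out of 68433 junctions in 10 libraries, and 1022 of them lay in the immunoglobulin kappa locus.

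The cells were Abelson-transformed pre-B cells of C57BL/6 background and LIG4-/- genotype, arrested in G1 with imatinib for 48 h. All libraries carried a zinc-finger nuclease (ZFN) induced with doxycycline at 1 µg/ml, and the break lies in the T-cell receptor beta locus, with Trbc2 and Trbv31 as its annotated neighbours. The groups were untreated (n = 2), etoposide at 50 µM for 2.5 h with 12 h of recovery (n = 2), and single libraries treated with IFN or DRB, either alone or followed by the same etoposide treatment, or cut by AsiSI, with or without DRB. Etoposide traps topoisomerase II on cut DNA, DRB blocks transcription and was given 2 h ahead, and AsiSI is a restriction enzyme whose induction also involved tamoxifen at 1 µM. The labels give IFN only as that abbreviation. The labels do not say whether replicates came from separate cultures or how many clones were used. Ligase IV carries out the final step of classical end joining, so every library here, the untreated ones included, comes from cells without that pathway.

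Alternative end joining works without ligase IV. Ends are first resected, short complementary stretches exposed on the single strands anneal, and flaps are trimmed before ligation, which leaves a microhomology at the join and deletes the bases between the original break and the annealed stretch. DNA polymerase theta is its best known enzyme. In pre-B cells arrested in G1 the RAG recombinase cuts the kappa locus next to the recombination signals of its V and J segments.

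The bait sequence shows where the shared bases come from. It was read as the consensus of the deposited reads (every position agreed in at least 99.9% of reads) and covers chromosome 6, 41554856 to 41555003, plus strand, ahead of and across the break. Capitals mark 3 stretches that recur below: TCCTCC (41554867 to 41554872), AGCCCAT (41554897 to 41554903), and the stretch from 41554963 to 41554977, which spans the break.
Bait: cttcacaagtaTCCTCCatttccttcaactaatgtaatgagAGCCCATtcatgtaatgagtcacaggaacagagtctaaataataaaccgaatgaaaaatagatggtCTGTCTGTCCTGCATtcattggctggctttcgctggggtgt
Each of the following reads runs from bait to prey, with the shared bases in capitals between 30 bases of bait and 30 bases of prey. The first 3, from etoposide replicate 1, show 3 of the 5 most frequent overlaps, joined to genes for a serine/threonine kinase (Stk17b), a cytoskeletal linker (Dst) and an inositol phosphatase (Inpp4a).
Stk17b: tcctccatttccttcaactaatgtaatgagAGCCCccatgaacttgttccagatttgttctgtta
Dst: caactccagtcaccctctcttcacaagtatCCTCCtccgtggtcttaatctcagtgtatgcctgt
Inpp4a: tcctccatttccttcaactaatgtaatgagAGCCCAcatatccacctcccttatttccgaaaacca
The next 3 are the kappa junctions found in most libraries, in the V segment Igkv6-32 (positions 70074039 and 70074064) and beside the J segment Igkj1 (position 70722509).
Igkv6-32 at 70074039: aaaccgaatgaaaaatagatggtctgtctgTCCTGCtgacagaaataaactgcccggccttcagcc
Igkv6-32 at 70074064: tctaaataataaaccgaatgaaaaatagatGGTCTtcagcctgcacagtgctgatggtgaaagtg
Igkj1: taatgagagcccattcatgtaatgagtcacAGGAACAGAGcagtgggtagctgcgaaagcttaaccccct
A further kappa read from the IFN library, beside Igkv6-32 (position 70073977), has the longest overlap in the locus, 18 bases with 3 mismatches to the bait.
Longest kappa overlap: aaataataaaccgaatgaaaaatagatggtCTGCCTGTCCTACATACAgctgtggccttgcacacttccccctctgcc
The last 3 show overlaps of 16, 17 and 18 bases that run across the break, at chromosome 19 position 21828201 (in Cemip2, a hyaluronidase gene), chromosome 12 position 78972194 (in Tmem229b) and chromosome 3 position 101467126 (outside protein-coding genes).
Cemip2: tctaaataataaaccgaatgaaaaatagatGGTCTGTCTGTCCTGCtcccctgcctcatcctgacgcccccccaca
Tmem229b: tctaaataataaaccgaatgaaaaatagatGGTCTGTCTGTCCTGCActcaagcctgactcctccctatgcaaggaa
Chromosome 3 site: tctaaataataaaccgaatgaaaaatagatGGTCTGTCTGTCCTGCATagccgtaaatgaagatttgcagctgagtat

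Overlap length chose the junctions and is given as a description. Over all prey the most frequent overlap was 3 bases (5807 junctions, 21.8%), and numbers fell with each further base up to 14. Just outside the limit lay 3543 prey with 4 shared bases (13.3% of prey), and just inside it 2269 with 5 (8.51%). There were 1318 with 6, 799 with 7, 390 with 8 and 209 with 9 shared bases, and 199 had 12 or more, up to 26. The longest, in untreated replicate 1 at chromosome 11 position 72240916, shared CCCCAACTCCAGTCACCCTCTCTTCA with the bait. The median overlap of long-overlap prey was 6 bases in every library except untreated replicate 1, where it was 7. Measured against the bait consensus, 4685 of the 5398 overlaps (86.8%) matched at every base, 612 had 1 mismatch and 101 had more. The prey side of the match was not analysed here.

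Untreated replicate 1 stood apart from the other 9 libraries in its longest overlaps. Of its 183 long-overlap prey, 59 (32.2%) shared 12 or more bases, against 2.24% to 7.97% elsewhere. It also had the most blunt prey joins (20.7% of prey, against 6.78% to 11.0%), and among its prey with shorter or no overlap 18.9% ended past the break, against 3.78% to 7.47% elsewhere. The main comparisons with this library are therefore also given with overlaps of 12 or more left out.

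**Figure D1:**
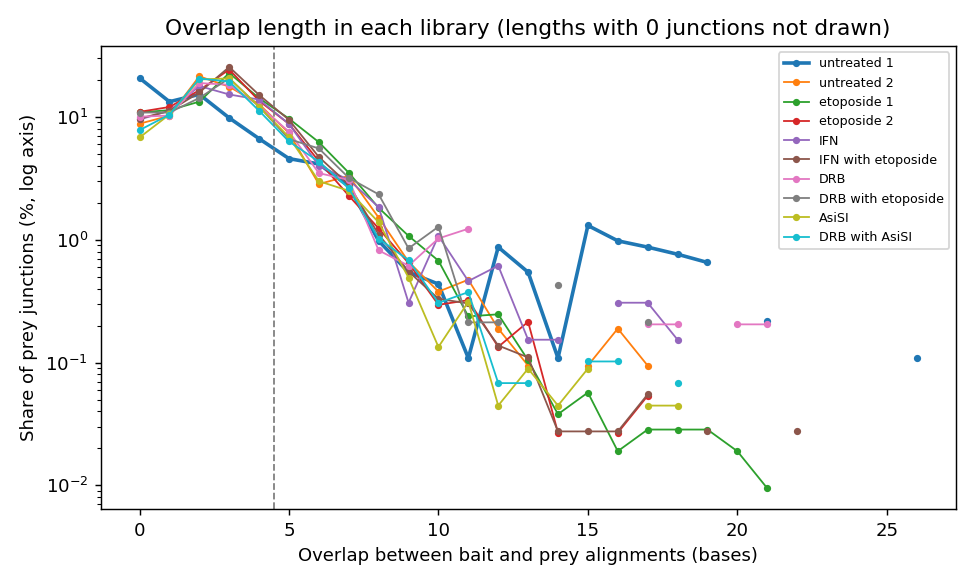
Share of prey junctions (%, log axis) against overlap length in bases, 1 line per library, with the limit of 5 bases dashed. Untreated replicate 1 (thick line) lies above the others at 0 bases, below them at 3 and 4, and above them from 15 to 19, and it holds 59 of the 199 junctions with 12 or more.

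Between 15.0% and 23.7% of a library's prey had a long overlap. The share was 19.9% (exact 95% interval 17.4 to 22.6) in untreated replicate 1 and 17.2% (15.0 to 19.6) in untreated replicate 2. With etoposide it was 23.7% (22.9 to 24.6) in replicate 1 and 18.3% (17.1 to 19.6) in replicate 2. The IFN library had 21.2% (18.1 to 24.5), and IFN with etoposide 19.7% (18.4 to 21.0). The DRB library had 18.6% (15.3 to 22.3), and DRB with etoposide 20.8% (17.2 to 24.8). Both AsiSI libraries were lowest, with 15.0% (13.5 to 16.5) for AsiSI and 16.0% (14.7 to 17.4) for DRB with AsiSI. The intervals cover counting error only, and only if each junction row is an independent molecule. Reads without molecular identifiers cannot be taken as such. The same limit holds for Fisher's exact tests and the Mantel-Haenszel interval below. The counts behind these shares were 183, 182, 2501 and 683 long-overlap prey in the untreated and etoposide replicates, 138 and 715 with IFN, 91 and 98 with DRB, and 336 and 471 with AsiSI.

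Etoposide against untreated is the one contrast with replicates. The long-overlap share averaged 21.0% ± 3.84 (SD, n = 2) in etoposide libraries, against 18.5% ± 1.91 (SD, n = 2) in untreated ones, a difference of 2.49 percentage points. The groups overlapped, since etoposide replicate 2 lay below untreated replicate 1. The difference was 3.86 points within replicate 1, whose libraries share a sequencing run, and 1.13 within replicate 2, whose libraries do not. It was no larger than the spread between replicates (exact two-sided permutation p = 0.667, where 2 against 2 libraries allow no p below 0.333). Without etoposide replicate 1 it turned to -0.22, and with the limit at 6 bases to -0.74, so its direction was not stable. With overlaps of 12 or more left out it was 5.10 points, and the groups no longer overlapped (exact permutation p = 0.333). P-values here measure only the spread between these libraries, which may be technical. Untreated replicate 2 held no prey with a bait end before 41554866. Etoposide replicate 2 held 20 at 41554856 alone, 13 of them with a long overlap. What this did to the difference within replicate 2 was not tested.

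Single libraries were set against each other in 19 comparisons, which compare libraries and not conditions. After Benjamini-Hochberg adjustment 4 differed (Fisher's exact test, two-sided). Etoposide replicate 1 exceeded untreated replicate 1 by 3.86 points (odds ratio 1.25, 95% interval 1.06 to 1.48, Fisher's exact test, adjusted p = 0.0394), the only one of the 4 within a run. This call was lost under 6 alternatives that kept the sign, among them repeated rows counted once (3.68 points), and with the limit at 6 bases the sign turned (-1.24 points). With overlaps of 12 or more left out it was 8.90 points, and 3 more libraries then exceeded untreated replicate 1. IFN did so by 5.41 points, DRB with etoposide by 5.73 and IFN with etoposide by 4.91 (exact tests, adjusted p = 0.0301, 0.0315 and 0.00456). IFN with etoposide against untreated replicate 1 passed in opposite directions with the limit at 4 bases (8.20 points, exact test, adjusted p = 1.90e-05) and at 6 (-5.09 points, exact test, adjusted p = 0.000118). IFN with etoposide lay 4.08 points below etoposide replicate 1 (odds ratio 0.786, 0.716 to 0.863, exact test, adjusted p = 6.45e-06). Against etoposide replicate 2, which shares its run, the same library lay 1.35 points higher (1.09, 0.972 to 1.23, exact test, adjusted p = 0.284). With the limit at 4 bases that difference was 2.91 points and passed (exact test, adjusted p = 0.0257). AsiSI lay 4.90 points and DRB with AsiSI 3.87 points below untreated replicate 1 (exact test, adjusted p = 0.00821 and 0.0394), in different runs. With overlaps of 12 or more left out, these 2 differences turned to 0.29 and 1.27 points above untreated replicate 1 and did not pass. Against untreated replicate 2 neither AsiSI library passed, with odds ratios of 0.850 (0.698 to 1.04) and 0.919 (0.762 to 1.11). DRB with etoposide against etoposide replicate 2 of the same run gave an odds ratio of 1.17 (0.924 to 1.49, exact test, adjusted p = 0.324). With the limit at 6 bases it passed, at 4.65 points (exact test, adjusted p = 0.00977). DRB with AsiSI against AsiSI gave an odds ratio of 1.08 (0.929 to 1.26, exact test, adjusted p = 0.499). Against untreated replicate 2 of the same run, IFN lay 3.98 points higher (1.29, 1.01 to 1.66, exact test, adjusted p = 0.157). DRB lay 1.42 points above it (1.10, 0.834 to 1.46, exact test, adjusted p = 0.640).

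Kappa prey and other prey had similar shares of long overlaps. In the untreated replicates 21.1% and 19.1% of kappa prey had one, against 19.5% and 13.6% of other prey. The etoposide replicates had 19.9% and 16.6% in kappa, against 23.8% and 18.5%. IFN alone gave 21.7% against 20.1%, and together with etoposide 19.1% against 19.7%. DRB alone gave 19.7% against 16.6%, and together with etoposide 20.7% against 20.9%. The AsiSI library had 14.8% against 15.3%, and the one that also received DRB 16.0% on both sides. The kappa share was higher in 4 libraries and lower in 6. The mean difference was 0.45 percentage points ± 2.65 (SD, n = 10 libraries), with an exact paired permutation p of 0.602 (0.752 adjusted over 5 such tests). With overlaps of 12 or more left out it was 1.70 points (exact paired permutation, adjusted p = 0.413). The Mantel-Haenszel odds ratio with library as stratum was 1.00 (95% interval 0.912 to 1.10). Within libraries, Fisher's exact test passed in 0 of 10 after adjustment and in 1 at an unadjusted p under 0.05, untreated replicate 2 (p = 0.0266).

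**Figure D2:**
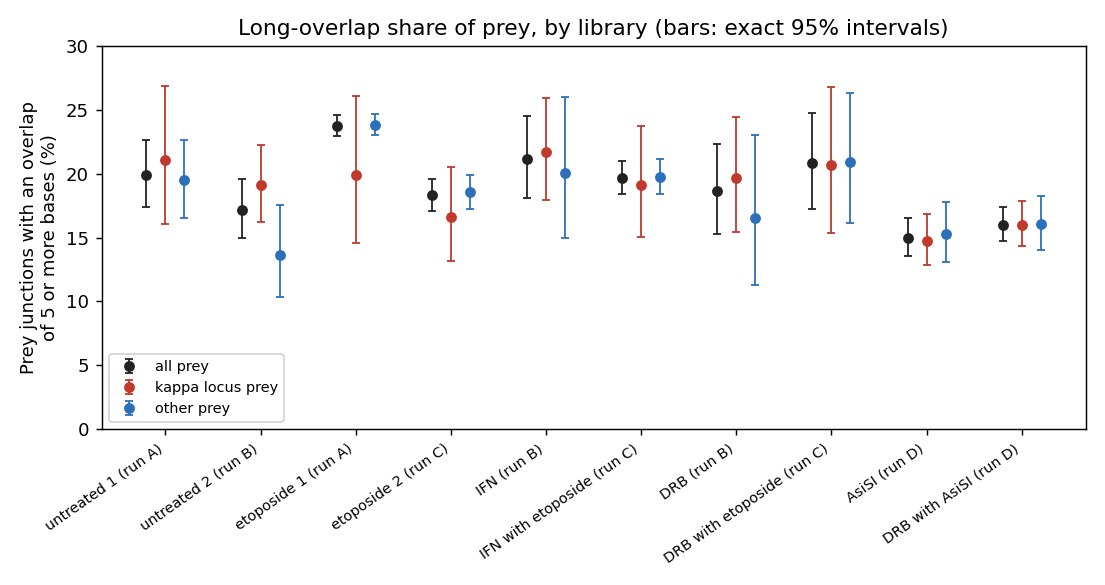
Share of prey with an overlap of 5 or more bases (%) in each library, for all prey, kappa prey and other prey, with exact 95% intervals for counting error and the sequencing run in brackets. The intervals of kappa and other prey overlap in every library, and the AsiSI libraries are lowest, at 15.0% and 16.0%.

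Within kappa, shares were counted by distance to the segments over all libraries together. Of prey within 200 bp of a J segment, 40 of 147 (27.2%, 20.2 to 35.2) had a long overlap, against 459 of 2628 (17.5%, 16.0 to 19) near V segments and 523 of 3084 (17.0%, 15.6 to 18.3) farther from any segment. The J share ranged from 5.88% to 35.3% over the 7 libraries with at least 10 such prey, with a median of 30%, and untreated replicate 1 was the lowest, with 17 such prey. The V share ranged from 15.2% to 23.6% over 10 libraries (median 18.3%) and the share farther away from 12.6% to 23.9% (median 19.1%). In untreated replicate 1 the J share lay below the V share of 22.0%. The AsiSI libraries, which had the lowest shares, held 2 J prey each, against 578 and 750 V prey. No test compared these classes, and the intervals treat rows pooled over libraries as separate. Single junctions beside Igkj1 at 70722509, 70722543 and 70722541 gave 7, 6 and 3 of the 40 J rows. The same rows are among those of Igkj1 given below. V segments held recurring junctions as well, with 7 rows each at 70074039 and 70074064 in Igkv6-32. Of the 1022 kappa junctions, 242 lay inside a segment body. Igkv6-32 led with 49 long-overlap prey of 209 (23.4%, 17.9 to 29.8), found in 9 libraries. Igkv11-125 followed with 18 of 87, Igkv9-123 with 18 of 60, Igkv1-117 with 16 of 80, Igkv8-30 with 12 of 66 and Igkv8-34 with 12 of 71. Igkv10-95 had 11 of 60, Igkv11-114 8 of 60, Igkv6-25 7 of 44 and Igkv8-27 7 of 36. Igkj1, named after its values were seen, had 26 long-overlap prey of 80 (32.5%, 22.4 to 43.9) within 200 bp.

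The same kappa junction recurred between libraries. Counting prey position, strand and bait end together, 219 of 1022 kappa long-overlap junctions (21.4%) occurred in 2 or more libraries, against 78 of 4376 (1.78%) outside kappa. Among prey with shorter or no overlap the shares were 6.43% and 0.329%. The junction of Igkv6-32 at 70074039 with bait end 41554975 and shared bases TCCTGC occurred in 7 libraries over all 4 runs. So did the one at 70074064 with bait end 41554964. At Igkj1, position 70722509 joined bait end 41554929 over 10 bases (AGGAACAGAG) in 6 libraries of 2 runs, and position 70722543 joined bait end 41554969 over 7 bases (CTGTCTG) in 6 libraries of 3 runs. Both lie outside the body of Igkj1 (70722562 to 70722599), at 53 and 19 bases from its start. Position 68164413 beside Igkv11-114 joined bait end 41554967 in 4 libraries and bait end 41554971 in 5, each of 2 runs, over the same 5 bases (CTGTC), which the bait holds at both places. Overlaps of 7 bases (ATAAACC) joined bait end 41554944 beside Igkv11-125 at 67914074 and beside Igkv9-123 at 67954206, each in 5 libraries of 4 runs. Position 67954274 in Igkv9-123 (CAGACTCTA) and position 68121849 beside Igkv1-117 (AAAAATAG) also recurred in 5 libraries of 3 runs each. The first is not an exact match, since the bait reads CAGAGTCTA there (bait end 41554933).

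Bait ends used by long-overlap prey spread over 162 positions, but few positions carried many of them. The 10 most used held 1599 of the 5398 junctions (29.6%). Most used was 41554902 (279 junctions), then 41554901 (267) and 41554872 (256), 71, 72 and 101 bases before the break. They were followed by 41554975 (129), 41554903 (126), 41554873 and 41554920 (113 each), 41554963 (110), 41554964 (106) and 41554972, which with 41554976 had 100. These positions were picked by their number of long-overlap prey. Of all 26668 prey, 41554901 held 1927, 41554902 held 1122 and 41554872 held 478, so the most used positions also held many prey with shorter or no overlap. The median bait end of long-overlap prey lay farther from the break than that of other prey in 6 libraries. In bases from the break, with negative values inside the bait, etoposide replicate 1 had -60 against -47, etoposide replicate 2 -70 against -54, IFN with etoposide -71 against -56 and DRB with etoposide -41.5 against -29. Untreated replicate 2 had -41 against -37 and AsiSI -29 against -23. The order was the opposite in untreated replicate 1 (-16 against -23), IFN (-27.5 against -32) and DRB with AsiSI (-22 against -23), and DRB had -29 on both sides. Among the 80 positions with at least 100 prey, the share with a long overlap ran from 3.45% (7 of 203 at 41554896) to 60.4% (61 of 101 at 41554904), with a median of 20.0%. The bait end counts the shared bases, so a longer match also moves a junction to a later position, and these shares depend on that rule. From 41554901 to 41554904 the share was 13.9%, 24.9%, 49.4% and 60.4%. At 41554872, 256 of 478 prey (53.6%) had a long overlap, mostly CCTCC (133) or TCCTCC (98).

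**Figure D3:**
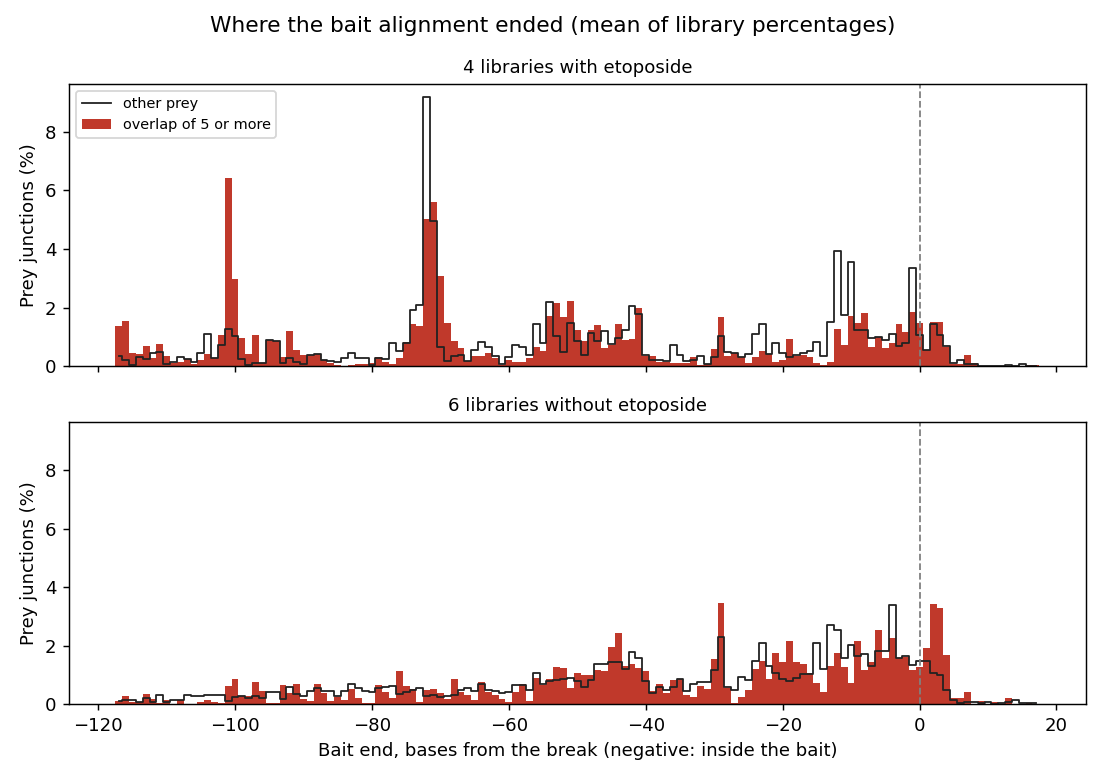
Bait end position of long-overlap prey (bars) and other prey (line), in bases from the break, as the mean of library percentages for the 4 libraries with etoposide (top) and the 6 without (bottom). With etoposide, peaks stand at 71 and 101 bases before the break, and without it most bait ends lie within about 60 bases of the break.

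The first peak was high in 3 of the 4 etoposide libraries, mainly in prey outside kappa. Bait ends 68 to 74 bases before the break (41554899 to 41554905, around AGCCCA) held 23.1% (exact 95% interval 21.5 to 24.8) of long-overlap prey in etoposide replicate 1, 23.1% (20.0 to 26.5) in replicate 2 and 22.8% (19.8 to 26.0) with IFN and etoposide. DRB with etoposide had 6.12% (2.28 to 12.8). Without etoposide the values were 0 of 183 in untreated replicate 1 (exact upper limit 2.00%), 8.24% (4.69 to 13.2) in untreated replicate 2, 3.62% with IFN and 2 of 91 junctions with DRB. AsiSI gave 2.38%, or 2.12% after DRB. The 3 high libraries did not overlap with any other. In the same 3 libraries only 3 of 40, 6 of 70 and 2 of 64 kappa long-overlap prey ended there, against 575 of 2461, 152 of 613 and 161 of 651 outside kappa. Prey with shorter or no overlap used the cluster in similar shares (22.6%, 23.1% and 27.7%). Junctions within 1 Mb of the break used it in 6.34%, 3.46% and 2.92%. The cluster was chosen after its values were seen, and no test was made.

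A second cluster, 99 to 102 bases before the break (41554871 to 41554874, around CCTCC), held a larger share of long-overlap than of other prey in 9 of 10 libraries, the exception being DRB with AsiSI (0.42% against 0.69%). The cluster was placed around a bait end chosen for its number of long-overlap prey. That choice favours a larger share among them, and no test was made. It held 9.40% and 14.9% of long-overlap prey in the etoposide replicates, 14.3% with IFN and etoposide, and 7.14% (7 of 98) with DRB and etoposide. Prey with shorter or no overlap in these libraries used it in 3.40%, 3.32%, 4.66% and 1.61%. In the 6 libraries without etoposide it held 0.42% to 3.30% of long-overlap prey, from 2 to 6 junctions each. Of the 466 junctions in it, 17 were in kappa, where kappa held 1022 of all 5398 long-overlap prey. Kappa had 0 of 235 and 2 of 102 in the etoposide replicates. It had 1 of 102 with IFN and etoposide and 0 of 7 with DRB and etoposide. Without etoposide it had 2 of 5 and 2 of 2 in the untreated replicates, 1 of 2 with IFN and 2 of 3 with DRB. AsiSI had 5 of 6 in kappa, and DRB with AsiSI 2 of 2. Over all libraries, 44.7% of the 1043 prey ending there had a long overlap. With both clusters left out, etoposide replicate 1 exceeded untreated replicate 1 by 1.89 points in its long-overlap share and no longer passed.

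**Figure D4:**
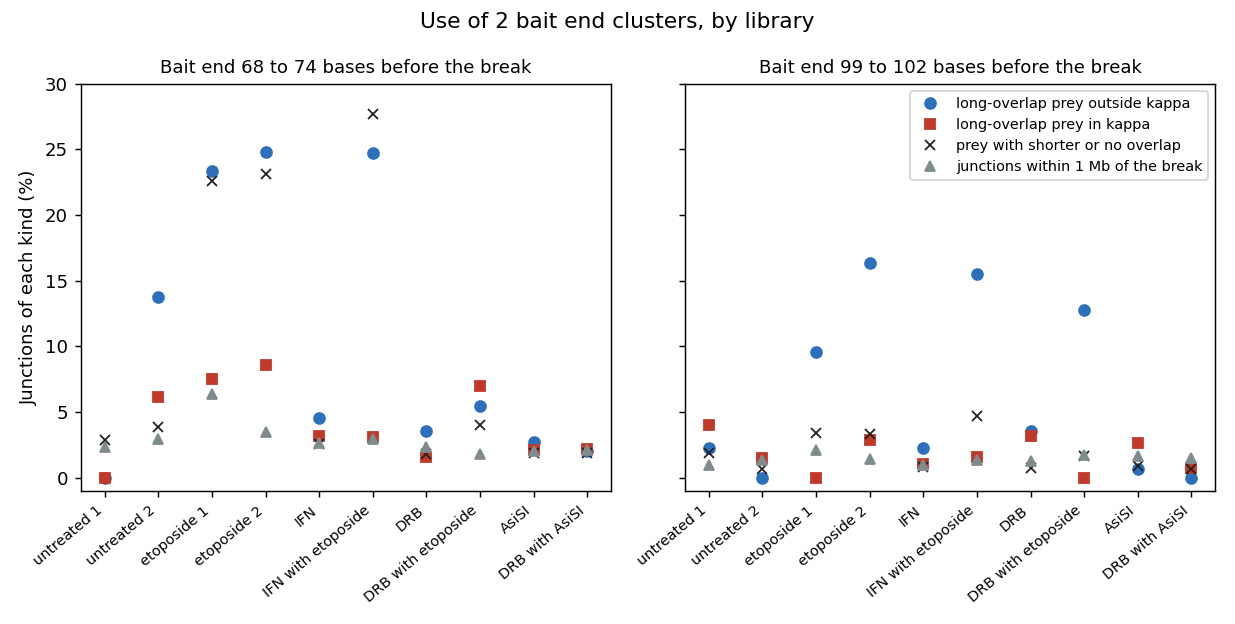
Share of junctions (%) that end in each of the 2 bait end clusters, by library, for long-overlap prey outside kappa (circles) and in kappa (squares), prey with shorter or no overlap (crosses) and junctions within 1 Mb of the break (triangles). Etoposide replicates 1 and 2 and IFN with etoposide stand at 23.4%, 24.8% and 24.7% of long-overlap prey outside kappa in the left panel, and in the right panel circles lie above crosses in all 4 etoposide libraries.

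The most frequent shared sequences came from these bait ends. The 5398 overlaps held 1206 different sequences, of which 708 occurred once. The 5 most frequent were AGCCC (148 junctions), CCTCC (133), GCCCA (115), TCCTCC (98) and AGCCCA (82), all from the 2 clusters, and 14 of these 576 were in kappa. Etoposide replicates 1 and 2 held 89 and 36 of the AGCCC joins, IFN with etoposide 19, untreated replicate 2 had 3 and AsiSI 1. Over all libraries kappa held 1022 of the 5398 long-overlap prey. It held only 40 of 2501 and 70 of 683 in the etoposide replicates, and 64 of 715 with IFN and etoposide. G and C made up 55.2% and 55.6% of shared bases in the etoposide replicates and 54.0% with IFN and etoposide, against 40.5% to 46.7% in the other 7 libraries. With the clusters left out these were 49.2%, 48.5% and 46.7%, against 39.5% to 46.5%, so the gap narrowed. Kappa overlaps were poorer in G and C than other overlaps in 10 of 10 libraries. The gap was widest in etoposide replicate 1, with 39.3% against 55.5%, and narrowest with IFN, with 40.7% against 41.5%. With the clusters left out, kappa overlaps were still poorer in G and C in every library. The gap was then widest in untreated replicate 1, with 34.0% against 49.5%, and etoposide replicate 1 had 36.6% against 49.5%.

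Of the 199 junctions with 12 or more shared bases, 92 had a bait end past the break and 107 did not. The bait end counts the shared bases, and in 74 of the 92 it lay only 1 to 7 bases past the break. With the shared bases counted to the prey, these 74 would end before the break. Of the 92, 51 were in untreated replicate 1. Etoposide replicate 1 had 15 and no further library more than 6. The 92 had a median overlap of 16 bases, lay at 77 different junctions on 20 chromosomes, and 67 held the bases TCTGTCCTG (41554966 to 41554974), which span the break. All bases matched the bait in 79 of the 92. The Cemip2 junction shown above occurred in 4 libraries (both untreated replicates, IFN, and DRB with AsiSI), and the Tmem229b and chromosome 3 junctions in 3 each. In all, 11 of the 77 were found in more than 1 library. In kappa lay 4 of the 92, where kappa held 5859 of all 26668 prey and 237 of the 920 prey of untreated replicate 1.

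The use of bait ends close to the break did not pass the test. Bait ends within 10 bp of the break made up 24.8% of long-overlap prey and 22.6% of other prey (means of 10 libraries), a difference of 2.23 points ± 5.37 (SD, n = 10; higher in 6 libraries, exact paired permutation p = 0.242, adjusted p = 0.605). It was largest in untreated replicate 1, with 38.8% against 25.2%, and lowest with IFN and etoposide, with 10.8% against 16.0%. With overlaps of 12 or more left out the mean turned to -0.30. With the shared bases counted to the prey and not to the bait it was -6.11 (exact paired permutation, adjusted p = 0.00977), a setting that moves long-overlap bait ends back by 5 or more bases and other prey by at most 4.

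Prey location gave no difference that passed adjustment. Outside chromosome 6, protein-coding gene bodies held 50.9% of long-overlap and 51.1% of other prey (difference -0.19 points ± 9.98 SD, n = 10; higher in 5 libraries, exact paired permutation p = 0.959). The plus strand held 50.9% and 50.2% (difference 0.66 ± 2.41 SD, n = 10; higher in 6 libraries, exact paired permutation p = 0.406). Outside kappa, chromosome 6 held 33.6% of long-overlap prey and 30.5% of other prey, 3.04 points more ± 4.42 (SD, n = 10). It was higher in 8 of 10 libraries, with an exact paired permutation p of 0.0410 that did not pass adjustment (0.205). The adjusted p fell to 0.0293 with overlaps of 12 or more left out (4.60 points) and with the limit at 4 bases (6.07 points). AsiSI showed the largest difference, 35.6% against 22.6%, and without both AsiSI libraries the mean was 1.5 points.

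The genes with the most long-overlap prey lay on the bait chromosome. The first 20 were all on chromosome 6 and held 309 long-overlap prey of 1178 prey (26.2%). They were ranked by that count, which favours a high share. Over all chromosome 6 prey outside kappa, 1653 of 7382 (22.4%) had a long overlap. Foxp1, whose product is a forkhead transcription factor needed in B cell development, had 67 of 273 (24.5%, 19.6 to 30.1), of which 44 were in etoposide libraries. Exoc4, an exocyst subunit gene, had 23 of 118, the kinase gene Hipk2 19 of 63, Fam3c, which encodes a secreted protein, 18 of 60, and Iqsec1, an Arf exchange factor gene, 16 of 79. The calcium channel gene Itpr2 had 15 of 63, the nuclease gene Snd1 14 of 56, the ubiquitin-conjugating enzyme gene Ube2h 14 of 46, and the antiviral gene Zc3hav1 13 of 55. In 15 of the 20 genes, Exoc4, Hipk2 and Fam3c among them, every long-overlap prey came from an etoposide library. Over all 20 genes, etoposide libraries held 271 of the 309 long-overlap prey and 1007 of the 1178 prey, and over all prey outside kappa 3780 of 4376 long-overlap junctions. Most prey outside kappa, whatever their overlap, came from these libraries. Etoposide replicates 1 and 2 held 10331 and 3307, IFN with etoposide 3300 and DRB with etoposide 263. Libraries without etoposide held between 169 and 1210 each. Agk, a lipid kinase gene, and Etv6, a leukaemia fusion gene, had 12 each, of 34 and 49 prey. Gars, Mical3 and Skap2 had 11 each, Vgll4 10, Hk2 and Tbxas1 9 each, and Bmt2 and Klhl42 8 each. Of these, Klhl42 had the highest share, 8 of 16 (50.0%, 24.7 to 75.3), and Exoc4 the lowest among the first 10, with 19.5% (12.8 to 27.8). The 2885 long-overlap prey inside protein-coding genes outside kappa were spread over 1818 genes.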

How the data were processed

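The authors' deposited files list 1 junction per row, with prey and bait positions and the read, per the file headers. They come from linear-amplification-mediated sequencing on the MiSeq and the standard pipeline of the assay, per the labels' protocols; mm10 and GRCm38.p2 are the builds, and bedtools the tool, in the submitters' processing notes. The filter columns for mapping quality, breaksite, sequential, repeat sequence and duplicate hold 0 in all rows. Libraries held 2044 to 13425 junctions. All prey were used, including 83 off chromosomes 1 to 19, X and Y.

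Overlap was the bait's last minus the prey's first read position plus 1. Kappa spans the annotated segments (chromosome 6, 67555636 to 70726754), and genes were placed by a RefSeq table of assembly GRCm38.p6, whose main chromosomes share the coordinates of mm10. Sequencing runs were read from read names. Groups and replicates came from the labels, which name untreated replicates 1 and 2 as the controls of etoposide replicates 1 and 2. Libraries were compared with exact permutation tests or Fisher's exact test (Python 3.11.15, scipy 1.17.1, statsmodels 0.14.6), adjusted by Benjamini-Hochberg and called at 0.05, after checking on simulated data. Paired tests needed at least 10 junctions on each side in a library. Named are the 10 kappa segments, 20 other genes, 5 overlaps and 10 bait ends with the most long-overlap prey, and junctions found in most libraries; 1 of the genes is not reported here. The junctions and lists were chosen with earlier results of these data known. The comparisons of IFN and DRB with etoposide against etoposide replicate 2 were added after seeing the data.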

Additional observations from a re-analysis of the deposited data

Results flagged for a closer look

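In 3 paired measures both untreated libraries moved one way and both etoposide libraries the other. They were chosen for that separation, so the difference between the groups was not tested. The kappa minus other difference in long-overlap share was 1.62 and 5.49 points in the untreated replicates and -3.92 and -1.95 points with etoposide, a change of -6.49. The share of bait ends within 10 bp of the break, long-overlap minus other prey, was 13.6 and 4.21 points untreated and -0.33 and -1.89 with etoposide, a change of -10.00. With overlaps of 12 or more left out that change was 0.22, with -5.88 in untreated replicate 1, so it rested on the longest overlaps of that library. The plus-strand share, long-overlap minus other prey, was 1.15 and 0.54 points untreated and -0.07 and -2.78 with etoposide, a change of -2.27. IFN with etoposide and DRB with etoposide had 0.65 and 4.75 points. With overlaps of 12 or more left out, the kappa change was -10.0 and the plus-strand change -3.56. Gene bodies outside chromosome 6, not among the 3 measures, then separated too. Their long-overlap minus other difference was -6.10 and -8.87 points untreated and 3.29 and 3.49 with etoposide, which was not tested.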

How the results depend on the processing

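Alternatives named as added here (overlaps matching the bait, prey alignments of at least 50 bases, main chromosomes, overlaps of 12 or more left out, the bait end clusters left out, both AsiSI libraries left out) were chosen after seeing the data. For etoposide minus untreated, the replicate block gave 2.49 points (exact p = 0.5, the smallest for 2 pairs), the limit at 6 bases -0.74, and leaving out 1 library -0.22 to 5.21. Kappa minus other prey was -0.75 against chromosome 6 prey alone and -0.11 to 0.94 with 1 library left out. Bait ends near the break gave -1.23 within 20 bp, -0.30 without overlaps of 12 or more, -6.11 with shared bases taken off, and 0.97 to 3.05 with 1 library left out. Gene bodies gave 1.46 and 0.34 with the limit at 4 and 6 bases, 1.45 with overlaps matching the bait, 0.87 without both AsiSI libraries, and -2.68 to 0.98 with 1 library left out. The plus strand gave -1.21 with the limit at 4 bases and 0.20 to 1.04 with 1 library left out. Chromosome 6 gave 6.07 with the limit at 4 bases and 4.60 without overlaps of 12 or more, both past the threshold, and 1.92 to 3.65 with 1 library left out. The number of single-library comparisons that passed went from 4 to 7 with the limit at 4 bases, and to 2 with overlaps matching the bait, with prey alignments of at least 50 bases, and with prey outside kappa.

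Single comparisons that changed sign were these. With the limit at 4 bases, differences to untreated replicate 1 were 8.20 for IFN with etoposide, 4.36 for DRB, 0.56 for AsiSI and 0.69 for DRB with AsiSI. With the limit at 6 they were -1.24 for etoposide replicate 1, -2.90 for IFN and -1.10 for DRB with etoposide, and etoposide replicate 2 minus untreated replicate 2 was -0.25 and DRB with etoposide minus etoposide replicate 1 was 0.135. Without overlaps of 12 or more, differences to untreated replicate 1 were 4.91 for IFN with etoposide, 3.54 for DRB, 0.29 for AsiSI and 1.27 for DRB with AsiSI. For DRB with etoposide minus untreated replicate 1 they were -0.023 beyond 10 Mb, -0.88 with alignments of at least 50 bases and -0.78 without the clusters, where etoposide replicate 2 minus untreated replicate 2 was -0.59. For IFN with etoposide minus untreated replicate 1 they were 0.025 with overlaps matching the bait and 0.25 outside kappa. Against untreated replicate 2, AsiSI was 1.68 and DRB with AsiSI 2.40 outside kappa, and DRB with AsiSI 0.21 with alignments of at least 50 bases. The cause of these changes was not tested. Counting repeated rows once and leaving out rows with an uncut mark changed no sign.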

Other observations

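Near the bait, long overlaps were less frequent. Within 1 Mb of the break 2732 of 41765 junctions shared 5 or more bases, and the share per library ran from 5.01% with DRB and AsiSI to 12.5% in etoposide replicate 1, below the prey share of the same library in all 10. That group was not tested against prey.

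Overlaps reached into the nested primer, whose last base lies at 41554846, in 11 long-overlap junctions of 4 libraries, all with 12 or more shared bases and 3 of them in untreated replicate 1. They include the longest overlap, 26 bases, joined to chromosome 11. Bait ends of prey start 10 bases past the primer in these files, at 41554856, but not in every library. Untreated replicate 2, IFN and DRB, which share a run, held no prey with a bait end before 41554866. Over all libraries, 56.8% of prey at 41554856 and 61.6% at 41554857 had a long overlap. Whether this changed the comparisons with libraries of that run was not tested.

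Prey alignments beyond the overlap had medians, in long-overlap against other prey, of 280 against 264 in etoposide replicate 1 and 76 against 71 in etoposide replicate 2, but 244 against 251 in untreated replicate 1 and 69.5 against 72 with AsiSI. Prey alignments were longer in the run of replicate 1 than elsewhere, where medians of long-overlap prey lay between 63 and 77.5 bases.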
